A study of Mus musculus with 2 samples.

Results

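The interferon response and MHC class I genes were followed as a list of 34 genes, matched by symbol. Of these, 33 are among the 32285 genes in the deposited counts and all 33 had a UMI, the tag that marks 1 captured RNA molecule, in a kept cell, while Mx1 was not analysed here. By role they comprised 13 antiviral effectors, 7 GTPases, 4 transcription factors, 7 genes of the class I antigen presentation pathway and 2 sensors of nucleic acid. The counts came from droplet scRNAseq of 2 kidneys of wildtype male C57BL/6J mice aged 19 weeks. The control library was made from 1 contralateral kidney that was not injured, and the ischemia library from 1 kidney taken after 27 min of ischemia and 24 h of reperfusion. A contralateral kidney shares its animal with an injured one and is not a kidney of an untouched mouse, and whether the 2 libraries came from the same mouse was not given in the sources used here. With 1 library per condition there is no replicate, so no test between conditions was made, and every interval below covers counting error only, not the spread between cells or animals.

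Interferons are secreted proteins that signal through receptors on neighboring cells to JAK kinases and STAT transcription factors. Type I and type III interferons act mainly through a complex with STAT2 and IRF9 that binds the interferon-stimulated response element (ISRE), and interferon gamma acts at the gamma-activated site (GAS), which also drives IRF1. The induced genes block viral replication, guard the cytosol with large GTPases and raise the supply of peptides to MHC class I, through the immunoproteasome, the TAP transporter and the class I chains with beta-2 microglobulin. In the kidney these genes are best known from viral infection, lupus nephritis and transplant rejection.

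The ISRE and the GAS lie in the promoters of many interferon-induced genes, so the promoter is shown first for 6 members that the results describe, each chosen among those with a match to one of these motifs. RefSeq promoter windows, from 250 bases before to 50 bases after the gene start on GRCm38.p6, were matched by symbol for 28 members. The ISRE was searched as GAAA, any 2 bases and GAAA on both strands, and was found in a window of 14 of these 28 members. It was in 42.4% of the 33 member windows, since some genes have more than 1 start, against 3.44% of all 32851 windows. The GAS letters TTCNNNGAA, also searched on both strands, were found for 7 members, in 21.2% of their windows against 8.3% of all windows. A match is only a run of letters in this window and not a shown binding site. The 160 bases before the start of Isg15 (chr4:156200819-156200978, minus strand), Ifit1 (chr19:34640729-34640888, plus strand), Ifit3 (chr19:34583369-34583528, plus strand), Bst2 (chr8:71537473-71537632, minus strand), B2m (chr2:122147527-122147686, plus strand) and Irf1 (chr11:53769854-53770013, plus strand) are given 5′ to 3′ in the direction of the gene. Capitals mark the ISRE matches in the first 5, which overlap each other in Isg15 and Bst2, and the GAS match in Irf1.
Isg15: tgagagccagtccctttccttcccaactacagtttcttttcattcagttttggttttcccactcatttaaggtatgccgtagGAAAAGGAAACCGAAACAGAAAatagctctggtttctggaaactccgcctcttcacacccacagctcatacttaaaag
Ifit1: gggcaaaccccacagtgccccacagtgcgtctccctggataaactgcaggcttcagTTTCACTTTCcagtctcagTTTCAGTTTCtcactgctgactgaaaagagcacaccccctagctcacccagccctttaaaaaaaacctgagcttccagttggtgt
Ifit3: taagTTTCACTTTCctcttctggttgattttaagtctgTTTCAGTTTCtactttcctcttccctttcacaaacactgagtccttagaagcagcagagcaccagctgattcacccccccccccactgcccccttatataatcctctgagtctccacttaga
Bst2: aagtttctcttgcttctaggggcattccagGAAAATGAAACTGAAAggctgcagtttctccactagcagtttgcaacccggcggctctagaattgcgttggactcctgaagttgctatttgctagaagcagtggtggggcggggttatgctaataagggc
B2m: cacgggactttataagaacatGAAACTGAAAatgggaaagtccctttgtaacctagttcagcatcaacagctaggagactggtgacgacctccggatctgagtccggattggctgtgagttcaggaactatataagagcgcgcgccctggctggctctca
Irf1: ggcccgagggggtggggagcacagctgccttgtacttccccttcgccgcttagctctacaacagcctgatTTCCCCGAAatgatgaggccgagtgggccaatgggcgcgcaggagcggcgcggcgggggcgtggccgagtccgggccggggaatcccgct
Isg15 held 3 matches, Ifit1, Ifit3 and Bst2 held 2 each, and B2m held 1, at position -139 from its start. In Bst2 a GAS match overlaps the first ISRE match. Irf1 had no ISRE match and 1 GAS match, at position -90. Neither motif was found for H2-K1, H2-D1, Tap1 or Psmb9, the last 2 of which lie head to head on chromosome 17 and overlap on opposite strands.

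The kept cells numbered 12586 for control and 13116 for ischemia, with medians of 3839 and 2138.5 UMIs per cell, and 58 cell barcodes occurred in both libraries (0.461% of the control and 0.442% of the ischemia cells). Cells were assigned to types by marker genes and are called "-like" below. These were proximal tubule (PT), thick ascending limb (TAL), distal convoluted and connecting tubule (DCT-CNT), collecting duct principal cells (CD-PC), thin limb, podocyte, pericyte, endothelial cells (EC), macrophage, neutrophil (PMN), T and NK, and B cells. Each type carried its own markers above the other cells in both libraries, but the summed level of the markers was lower after ischemia in each of the 5 tubule types, for example 10570 CPM (control) and 5429 CPM (ischemia) in PT-like cells. The CD-PC-like cluster also had the intercalated cell genes Atp6v1g3 and Aqp6 among its leading genes. No cluster was named intercalated here, so the CD-PC-like values are taken as those of a mixed cluster. The cluster of 10463 cells with a median of 836 UMIs and a further cluster of 1615 cells met no type's rule and stayed unnamed. The larger held 36.3% of the control and 45.0% of the ischemia cells. PT was its best marker list, but no PT marker was among its 10 leading genes. The PT-like values below leave these cells out.

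Summed by group, the members were lowest in most nephron types and highest in EC-like or immune cells. CPM, the standard depth-scaled unit, were computed from the UMIs of a gene summed over all cells and divided by the UMIs of all genes in the cells of a type and library. The 26 members outside the class I pathway summed to 2022 CPM (control) and 2149 CPM (ischemia) in EC-like cells, to 1161 and 1201 CPM in macrophage-like cells, but to 47.9 and 118 CPM in PT-like cells. The 7 class I pathway members gave 3617 CPM (control) and 3337 CPM (ischemia) in macrophage-like cells, 2999 and 3643 CPM in EC-like cells, and 214 and 307 CPM in PT-like cells. Thin limb-like cells stood apart among the tubule types, with 929 and 846 CPM for the interferon members. PT-like cells nevertheless held 35.8% of the control library's B2m UMIs and 27.0% of the ischemia library's, and carried most of the UMIs of all genes in each library.

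**Figure D1:**
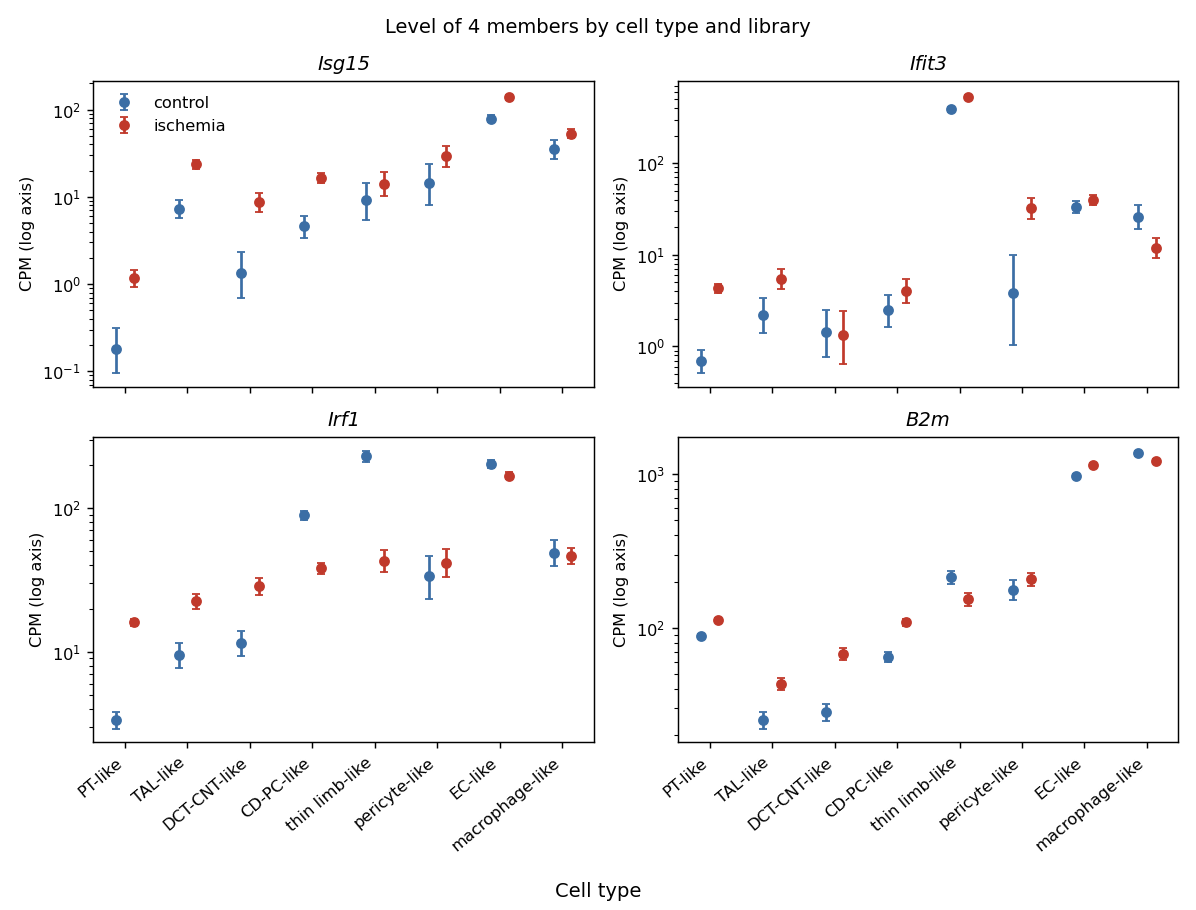
Levels of Isg15, Ifit3, Irf1 and B2m in CPM on a log axis, by cell type, with 1 point per library and its 95% Poisson interval. EC-like and macrophage-like cells sit above the tubule types for Isg15 and B2m in both libraries, Ifit3 is highest in thin limb-like cells, and Irf1 is higher in ischemia in PT-like, TAL-like and DCT-CNT-like cells and lower in CD-PC-like and thin limb-like cells.

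A member was counted as higher or lower in ischemia when its CPM differed at least 2-fold from control, among genes with at least 50 UMIs in a type over both libraries. In PT-like cells 28 members passed this minimum and 18 of them were at least 2-fold higher, against 6.92% of all genes tested there. In TAL-like cells the count was 16 of 24 against 7.88%, in DCT-CNT-like cells 12 of 17 against 6.41%, and in CD-PC-like cells 12 of 26 against 5.69%. In EC-like cells all 33 passed the minimum and 0 were 2-fold higher, against 1.68%, and in macrophage-like cells 1 of 32 was, against 5.69%. In thin limb-like cells 0 of 16 members were 2-fold higher and 4 were at least 2-fold lower, against 6.62% of all genes. A gene with few control UMIs passes the minimum only through the ischemia library and must then differ. No member was at least 2-fold lower in PT-like, TAL-like, DCT-CNT-like or EC-like cells, where 3.83%, 7.65%, 4.95% and 3.53% of all genes were, and 3.8% of all genes were 2-fold higher in thin limb-like cells. With a minimum of 25 UMIs in the control library instead, 10 of 19 members were 2-fold higher in PT-like (5.13% of all genes), 6 of 14 in TAL-like (5.4%), 7 of 11 in DCT-CNT-like (4.57%) and 7 of 21 in CD-PC-like cells (3.51%).

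**Figure D2:**
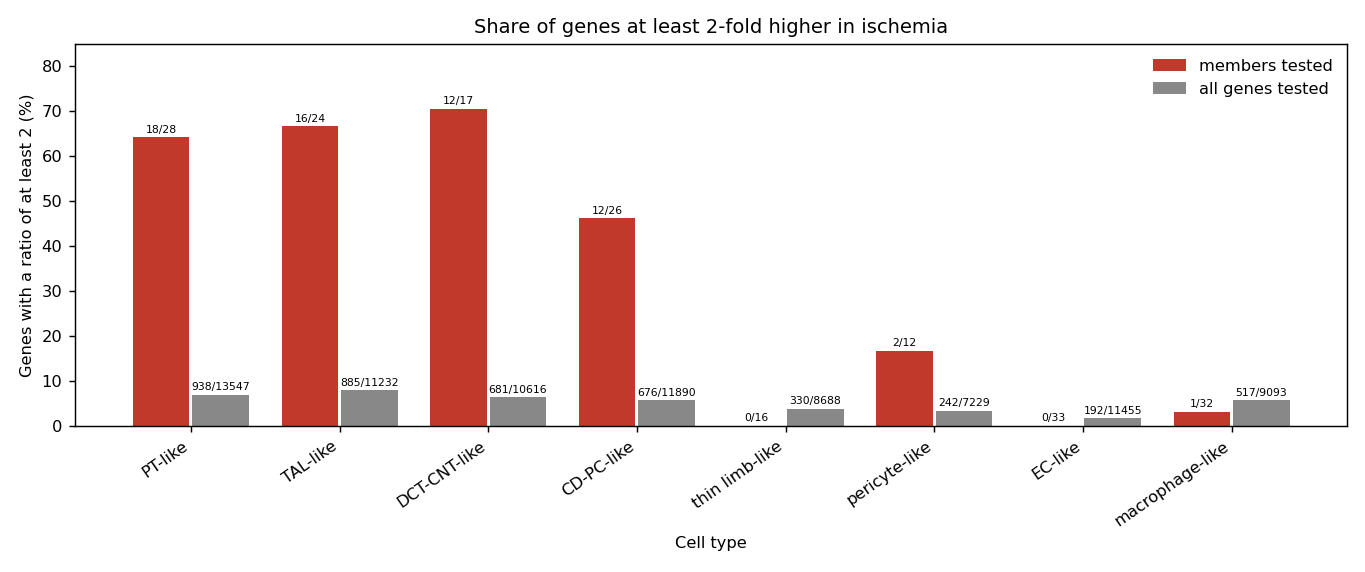
Percent of genes at least 2-fold higher in the ischemia library, by cell type, for the members tested and for all genes tested in that type. The bars of the members are above those of all genes in PT-like, TAL-like, DCT-CNT-like, CD-PC-like and pericyte-like cells. They are below those of all genes in macrophage-like cells and at 0% in EC-like and thin limb-like cells.

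**Figure D3:**
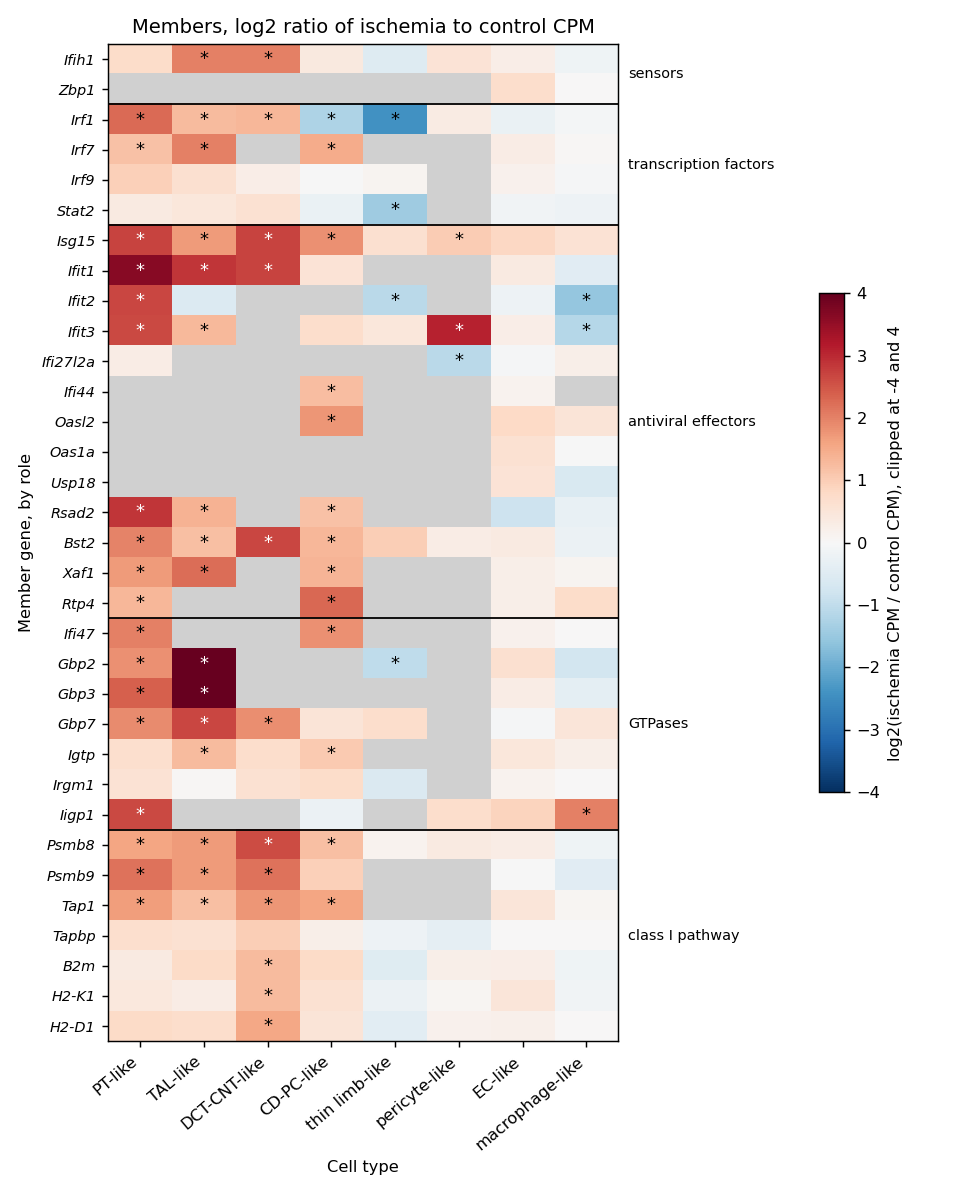
Log2 ratio of ischemia to control CPM for the 33 members in 8 cell types, with an asterisk where the ratio is at least 2 or at most 0.5 and grey where a member had under 50 UMIs in that type. The nephron columns hold most of the asterisks, the EC-like column holds none, and Irf1 is on the higher side in PT-like and on the lower side in thin limb-like and CD-PC-like cells.

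PT-like cells (3917 control and 2766 ischemia cells) reabsorb most of the filtered solute and are the main site of ischemic injury. All 9 antiviral effectors tested there except Ifi27l2a were at least 2-fold higher after ischemia. Isg15, a ubiquitin-like protein joined to other proteins after interferon, was at 0.181 CPM in the control kidney and 1.17 CPM after ischemia, a ratio of 6.49 (95% interval, 3.59 to 12.7). Bst2, or tetherin, which holds budding virus at the cell surface, was at 3.13 and 12.3 CPM, a ratio of 3.94 (3.39 to 4.58). The IFIT proteins bind foreign RNA ends, and Ifit1, Ifit2 and Ifit3 had ratios of 12.4, 6.39 and 6.20. Rsad2, or viperin, which makes a chain-ending nucleotide, had 7.32, Xaf1 3.27 and Rtp4 2.53. With the minimum of 25 control UMIs, Isg15, Ifit1, Xaf1, Rtp4, Gbp2, Gbp3, Iigp1 and Psmb9 were not tested in PT-like cells. Rtp4 and Psmb8 were not called without integration of the libraries. With the mean of each cell's CPM, Irf7, Xaf1 and Gbp2 were not called, while Irf9 and Ifih1 were.

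For Isg15, Ifit1, Ifit3 and Rsad2 a few PT-like cells held most of the UMIs. Isg15 was detected in 13 control and 28 ischemia cells. Of 243 Rsad2 UMIs in ischemia PT-like cells, 172 (70.8%) were in 1 cell, which also held 113 of the 211 Ifit1 UMIs, 105 of the 294 Ifit3 UMIs and 18 of the 80 Isg15 UMIs. That cell had 61085 UMIs in all, 630 of them from interferon members outside the class I pathway. It was outside the top 8% of Scrublet doublet scores, although it had a UMI of an immune or EC marker. A second cell, with 26012 UMIs and no UMI of an immune or EC marker, held 212 UMIs of these members. Leaving out the 5 cells with the most such UMIs from each library gave ratios of 1.32 for Rsad2, 2.64 for Ifit1, 2.73 for Ifit3, 4.38 for Ifit2 and 4.14 for Isg15, and 12 of 24 members were then at least 2-fold higher, against 6.84% of all genes, in place of 18 of 28.

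**Figure D4:**
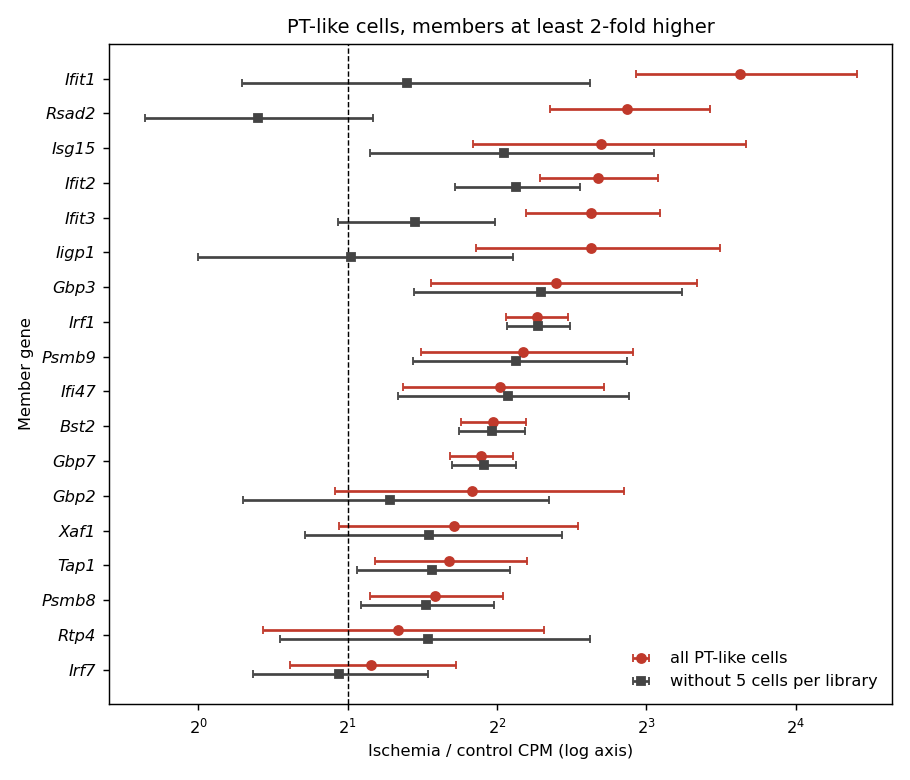
Ratio of ischemia to control CPM, on a log axis, of the 18 members at least 2-fold higher in PT-like cells, with all cells and without the 5 cells per library with the most interferon member UMIs. Rsad2, Ifit1, Iigp1 and Ifit3 move toward 1 without these cells, while Irf1, Bst2 and Gbp7 keep their place.

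Irf1, Bst2 and Gbp7 were spread over many PT-like cells. Irf1, a transcription factor that drives class I and GTPase genes, was at 3.33 CPM in the control kidney and 16.0 CPM after ischemia, a ratio of 4.81 (4.18 to 5.55), with its UMIs in 203 control and 554 ischemia cells. Without the 5 cells per library its ratio was 4.84, that of Bst2 was 3.91 and that of Gbp7 was 3.77. Of the other transcription factors, Irf7, which amplifies type I interferon, had a ratio of 2.23 with all cells and 1.93 without those 5, while Irf9 (4.18 and 8.04 CPM) and Stat2 (5.96 and 7.66 CPM), which bind together at the ISRE, stayed under 2-fold.

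The GTPases split in PT-like cells by size of change and by the cells that held them. The guanylate binding proteins Gbp2, Gbp3 and Gbp7, which coat vacuoles of microbes, had ratios of 3.57, 5.27 and 3.72. Gbp7 was the most abundant of these in UMIs, at 3.34 CPM in the control kidney and 12.4 CPM after ischemia. Of the immunity-related GTPases, Ifi47 had 4.05 and Iigp1 6.19, but 74 of the 94 Iigp1 UMIs were in 5 cells and the ratio without the highest cells was 2.03. Igtp (183 and 275 UMIs) and Irgm1 (1111 and 1567 UMIs) were under 2-fold, at 1.58 and 1.49.

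The inducible steps of class I presentation differed more between the PT-like libraries than the class I chains. Psmb8 and Psmb9, catalytic subunits of the immunoproteasome, had 59 and 22 UMIs in control and 168 and 94 in ischemia, with ratio intervals of 2.22 to 4.11 and 2.81 to 7.53, and Tap1, a subunit of the peptide transporter, had 3.21 (2.28 to 4.60). B2m was at 88.7 CPM in the control kidney and 113 CPM after ischemia, a ratio of 1.28. H2-K1 was at 56.7 and 76.1 CPM and H2-D1 at 50.1 and 85.8 CPM, ratios of 1.34 and 1.71. Tapbp, or tapasin, which loads peptide onto class I, had 1.61. The sensor Ifih1, or MDA5, which detects long double-stranded RNA, was at 4.69 and 7.88 CPM.

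The 3 PT-like clusters each had members called higher. Bst2, Gbp7, Psmb8, Ifit2 and Ifit3 were at least 2-fold higher in all 3, and the share of all genes called in all 3 is not given. In ischemia 1 cell of the Slc5a12-led cluster held 105 Ifit3 and 49 Ifit2 UMIs. In the Ttr-led cluster 1 cell held 56 and 32, and in the Slc7a13-led cluster 2 cells held 35 and 19 Ifit2 UMIs. Whether the Ifit2 and Ifit3 calls of each cluster rest on these cells was not tested. None was called lower, against 2.43% to 4.08% of all genes. The cluster of 2651 cells, led by Slc5a12 and Slc5a2, had 13 of 22 members called, against 6.5% of all genes higher and 3.28% lower, with Irf1 at 3.24 CPM in the control kidney and 21.9 CPM after ischemia. The cluster of 1309 cells, led by Slc7a13, had 9 of 16 against 5.72%, with Irf1 at 3.18 and 11.1 CPM. The cluster of 2723 cells, led by Ttr and Miox, had 7 of 16 against 4.3% higher.

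Macrophage markers were higher in the ischemia library within PT-like cells too, and PMN markers were not. The 11 macrophage markers summed to 7.96 CPM in the control kidney and 17.8 CPM after ischemia, all 11 with a UMI in each library. The 8 PMN markers summed to 6.47 and 6.43 CPM, with Ly6g at 0 in both libraries, and the 10 EC markers had 727 and 888 UMIs in all. Among PT-like cells with 0 UMIs of any immune or EC marker (2886 control and 1439 ischemia cells), 8 of 18 members tested were at least 2-fold higher, against 5.81% of all genes. Markers of other tubule types, podocytes and pericytes were not screened. A single ischemia cell held 44 of the 52 ischemia Ifit1 UMIs there and 56 of the 111 ischemia Ifit3 UMIs. Irf1 was at 3.44 and 15.4 CPM there, Bst2 at 3.13 and 12.1 CPM, and Irf7 at 0.721 and 1.38 CPM, while 9 of the 18 members called in all cells had too few UMIs left.

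TAL-like cells (494 control and 487 ischemia cells) take up sodium chloride in the outer medulla and cortex. Isg15 was at 7.26 CPM in the control kidney and 23.7 CPM after ischemia, a ratio of 3.27 (2.53 to 4.27), and was detected in 35 and 97 cells. Ifit1 was at 3.29 and 23.9 CPM, a ratio of 7.27, whereas its neighbor Ifit2 was at 8.71 and 5.96 CPM. The guanylate binding proteins passed the minimum mainly through the ischemia library. Gbp2 had 1 UMI in control and 64 in ischemia, a ratio of 52.5 with an interval from 9.10 to 2107, and Gbp3 had 3 and 61, a ratio of 16.7 (5.45 to 83.2). Gbp7 had 18 and 139 UMIs, a ratio of 6.34. Their sizes are therefore a description, and with the minimum of 25 control UMIs none of these 3 was tested.

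The other TAL-like calls covered each role, but Irf7, Psmb9, Tap1, Ifit3, Rsad2, Xaf1 and Igtp also had under 25 control UMIs. With the minimum of 25 control UMIs these were not tested. Isg15, Ifit1, Irf1, Bst2, Psmb8 and Ifih1 stayed called, and no GTPase did. Irf1 was at 9.48 CPM in the control kidney and 22.6 CPM after ischemia and Irf7 at 0.968 and 3.89 CPM. Psmb8 (8.32 and 26.9 CPM), Psmb9 (1.94 and 6.35 CPM), Tap1 (2.32 and 5.32 CPM) and Ifih1 (4.06 and 16.3 CPM) were 2.29-fold to 4.01-fold higher. Ifit3, Rsad2, Bst2, Xaf1 and Igtp had ratios from 2.31 to 4.74. B2m (25.2 and 43.2 CPM), H2-K1 (134 and 167 CPM) and H2-D1 (66.3 and 109 CPM) stayed under 2-fold. The PMN markers summed to 0.774 CPM in control, with Csf3r, Retnlg, Mmp9 and Ly6g at 0, and to 20.7 CPM in ischemia, with Ly6g at 0. The macrophage markers summed to 10.7 and 25.5 CPM. In TAL-like cells with 0 UMIs of immune and EC markers (312 and 186 cells) 5 of 14 members were called, against 5.65% of all genes. These were Isg15 at 9.13 and 21.4 CPM, Ifit1 at 2.66 and 27.1 CPM, and Irf1, Psmb8 and Ifih1, while Bst2 had a ratio of 1.71. Another 10 of the members called in all TAL-like cells had too few UMIs left there. With a limit of 25% mitochondrial UMIs per cell, 6 members stayed called, 8 had too few UMIs left, and Bst2 and Psmb8 were under 2-fold. The share of all genes is not given for that limit.

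DCT-CNT-like cells (464 control and 350 ischemia cells) were the only type of the 7 compared in which the class I chains were 2-fold higher. B2m was at 28.4 CPM in the control kidney and 68.1 CPM after ischemia, a ratio of 2.40 (2.06 to 2.80). H2-K1 was at 74.3 and 178 CPM and H2-D1 at 40.8 and 120 CPM, ratios of 2.40 and 2.95. Psmb8, Psmb9 and Tap1 had 6.10, 4.50 and 3.38, so 6 of the 7 class I pathway members were called and Tapbp stood at 1.97. Among the others, Isg15 had 12 UMIs in control and 66 in ischemia, Bst2 was at 4.58 and 29.0 CPM, Ifih1 at 4.36 and 17.7 CPM, and Irf1 at 11.5 and 28.6 CPM. Ifit1 and Gbp7 were also called. Of these calls, Isg15, Ifit1, Gbp7, Psmb9 and Tap1 had under 25 control UMIs, and with that minimum they were not tested. The macrophage markers summed to 14.6 and 19.7 CPM here, with Ms4a7 at 0 in both libraries, the PMN markers to 1.68 and 7.18 CPM, with Cxcr2, Retnlg and Ly6g at 0 in both, and the EC markers to 8.38 and 14.1 CPM. In the cells with 0 UMIs of immune and EC markers, 6 of 11 members tested were called, against 4.48% of all genes, and H2-K1 was not. Ifih1 was among these 6, with 69 ischemia UMIs, 31 of them in 1 cell. Another 5 of the members called in all cells had too few UMIs left there. Without integration of the libraries another and shallower set of cells was named DCT-CNT (531 control and 697 ischemia cells, with a median of 3616 in place of 20710 UMIs). In that set 3 of 9 members were called against 7.04% of all genes, and of the class I chains H2-D1 had a ratio of 2.07, whereas B2m (1.37) and H2-K1 (1.74) were not called.

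CD-PC-like cells (510 control and 438 ischemia cells) had 12 members called higher, against 5.69% of all genes, and 1 called lower, against 4.11%. Rtp4, a receptor transporter protein, was at 2.11 CPM in the control kidney and 10.4 CPM after ischemia, a ratio of 4.94 (3.12 to 8.16). Isg15 was at 4.60 and 16.5 CPM, but 74 of its 195 ischemia UMIs were in 1 cell and its ratio without the 5 highest cells per library was 1.99 in place of 3.59. Bst2 was at 17.6 and 44.2 CPM, Psmb8 at 17.2 and 40.1 CPM, and Tap1 at 2.68 and 8.04 CPM. At a clustering resolution of 0.6, clusters of 185 and 103 cells were named intercalated, and 355 control and 308 ischemia cells were named CD-PC. In these CD-PC cells 8 of 23 members were called against 5.81% of all genes. Psmb8 and Igtp were not called, and Ifi47 and Irf7 had too few UMIs. Which of the 12 calls belong to principal cells was not tested. Ifi44, Ifi47, Irf7, Oasl2, Rsad2, Xaf1 and Igtp made up the other calls, from 2.07-fold to 3.53-fold. Rtp4, Ifi44, Ifi47, Irf7 and Oasl2 had under 25 control UMIs, and with that minimum they were not tested. Irf1 was the 1 member called lower, at 89.1 CPM in the control kidney and 38.2 CPM after ischemia, a ratio of 0.428 (0.382 to 0.480). With the mean of each cell's CPM it was not called lower. The PMN markers moved with the ischemia library, from 1.34 to 93.6 CPM. In cells with 0 UMIs of immune and EC markers (276 and 181 cells), 3 of 12 members tested were higher, against 3.38% of all genes. Isg15 was among these 3, with 97 ischemia UMIs, 74 of them in 1 cell. The other 9 members called higher in all cells had too few UMIs left there. Irf1, at 85.8 and 47.3 CPM, was not 2-fold lower.

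Thin limb-like cells (102 control and 93 ischemia cells), which line the thin part of the loop of Henle, had the highest Ifit3 level of any type. Ifit3 was at 387 CPM in the control kidney and 531 CPM after ischemia and was detected in 67 cells of each library. The gene was among the 10 that led this cluster although no member was used for clustering. These cells held 66.3% of the control library's Ifit3 UMIs and 62.1% of the ischemia library's. Irf1 was at 230 CPM in the control kidney and 43.1 CPM after ischemia, a ratio of 0.188 (0.152 to 0.230), and 0.253 without the 5 cells per library with the most member UMIs. Stat2 (34.1 and 12.8 CPM), Ifit2 (83.5 and 39.5 CPM) and Gbp2 (26.0 and 12.8 CPM) were also at least 2-fold lower. Bst2 was at 22.4 and 44.1 CPM, just under 2-fold higher, and B2m at 214 and 154 CPM. The macrophage markers summed to 115 CPM in the control kidney and 31.3 CPM after ischemia here, the opposite direction to the other tubule types, with Ms4a7 at 0 in control and Adgre1 and Fcgr1 at 0 in ischemia. In the 43 control and 26 ischemia cells with 0 UMIs of immune and EC markers, 5 members were tested. Ifit3 was then at 277 and 777 CPM, a ratio of 2.80 (2.25 to 3.51), and was called higher, as were 15.7% of all genes, while Irf1, at 87.2 and 33.9 CPM from 33 and 17 UMIs, was called lower, as were 5.81%. Ifit2 had 16 and 23 UMIs there, at 42.3 and 45.9 CPM. With the mean of each cell's CPM, Ifit2, Stat2 and Gbp2 were not called lower and 3 members were called higher.

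EC-like cells (967 control and 1096 ischemia cells) held members at a high level in both libraries. Rsad2 was at 478 CPM in the control kidney and 272 CPM after ischemia, a ratio of 0.568 (0.536 to 0.602), and was detected in 602 and 517 cells. These cells accounted for 94.0% of the control library's Rsad2 UMIs. Isg15 was at 78.9 and 139 CPM, Iigp1 at 104 and 191 CPM and Oasl2 at 30.2 and 52.1 CPM, ratios of 1.76, 1.84 and 1.72. Ifi44 was at 131 and 145 CPM, Bst2 at 349 and 444 CPM, and Irf1 at 204 and 169 CPM. The class I chains were at 971 and 1155 CPM for B2m, 624 and 864 CPM for H2-K1, and 1024 and 1188 CPM for H2-D1.

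The 3 clusters named EC-like had different members called. In the largest, 1831 cells led by Adgrl4 and Plvap, Rsad2 was at 616 CPM in the control kidney and 304 CPM after ischemia, a ratio of 0.493, and was the 1 member called there, against 3.81% of all genes called lower and 2.26% called higher. The cluster of 117 cells led by Ptn and Dkk2 had only Kdr and Emcn of the EC markers among its 10 leading genes, had pericyte as its second-best list, and no EC-like cluster had Ptn among its leading genes without integration, at resolution 0.6 or with interferon genes kept, so its type is uncertain. At resolution 0.6 Ptn was a leading gene of an unnamed cluster of 270 cells, whose best list was pericyte. The pericyte cluster held 423 cells here, 533 without integration and 539 with interferon genes kept. The cells that moved between clusters were not followed, so the 117 cells may be pericytes or related cells. EC-like cells without the Ptn-led cluster also had 0 of 33 members called in either direction. In that cluster Iigp1 was at 175 and 711 CPM, a ratio of 4.06 (3.36 to 4.93), Isg15 at 23.8 and 74.0 CPM and Irgm1 at 28.6 and 72.3 CPM, and these were 3 of 14 members called higher against 1.56% of all genes (0 lower against 1.78%). Of the 423 ischemia Iigp1 UMIs of that cluster, 181 were in 1 cell. In the cluster of 115 cells led by Kdr and Emcn, Iigp1 was at 162 and 480 CPM, a ratio of 2.96, and was the 1 of 12 members called higher, against 1.69% of all genes (0 lower against 1.63%). The PMN markers summed to 9.11 CPM (control) and 96.7 CPM (ischemia) in EC-like cells, with Ly6g at 0 in both, and their part in these values was not tested.

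Macrophage-like cells (289 control and 579 ischemia cells) had most members within 2-fold of their control level. B2m was at 1364 CPM in the control kidney and 1223 CPM after ischemia, H2-D1 at 942 and 944 CPM, Psmb8 at 428 and 383 CPM, and Ifi27l2a, the most abundant interferon member there in UMIs, at 429.5 and 504 CPM. Iigp1 was the 1 member called higher, at 8.37 and 33.9 CPM, but 88 of its 182 ischemia UMIs were in 1 cell and its ratio was 1.68 without the 5 cells per library with the most member UMIs. Ifit2 (38.5 and 13.2 CPM) and Ifit3 (26.2 and 11.9 CPM) were called lower, against 4.87% of all genes. A single control cell held 38 of the 69 Ifit2 UMIs and 30 of the 47 Ifit3 UMIs. Without the 5 cells neither was called, while Isg15 (2.65) and Irf7 were then at least 2-fold higher. Isg15 was also called higher with the mean of each cell's CPM, and Ifi44, Oasl2 and Rtp4 in cells gated on 3 macrophage marker UMIs. The share of all genes called in these settings is not given here. The PMN markers summed to 18.4 and 322 CPM in macrophage-like cells, with Retnlg and Ly6g at 0 in both libraries, and their part in these values was not tested.

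The mix of macrophage-like cells differed between the libraries, so 4 sub-clusters were compared within themselves. Sub-cluster 2 held 22 control and 272 ischemia cells. There Isg15 was at 169 CPM in the control kidney and 60.6 CPM after ischemia and Ifit2 at 268 and 8.16 CPM, 7 of 21 members were at least 2-fold lower against 7.13% of all genes and 2 higher against 11.8%, and the control cell named above belongs to it. That 1 cell held all 38 control Ifit2 UMIs and all 30 control Ifit3 UMIs of the sub-cluster and 18 of its 24 control Isg15 UMIs, and without the 5 highest cells per library the Isg15 ratio was 1.07 in place of 0.358. Sub-cluster 1, of 186 and 170 cells, had 1 of 19 members called against 6.64% of all genes, Iigp1 at 7.46 and 88.7 CPM, with 88 of its 151 ischemia UMIs in 1 cell, and 0 lower against 3.75%. Sub-cluster 3, of 35 and 78 cells, had 6 members tested and 0 called, against 14.3% of all genes higher and 5.18% lower. Sub-cluster 4, of 46 and 59 cells, had Isg15 at 14.9 and 86.9 CPM as its 1 call of 11 members, against 4.74% of all genes, with 0 lower against 2.49%, and a ratio of 3.78 without the 5 highest cells per library.

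The remaining types held fewer UMIs. In pericyte-like cells (180 and 243 cells) 12 members were tested and 2 were at least 2-fold higher against 3.35% of all genes. These were Isg15 at 14.4 and 29.4 CPM and Ifit3 with 4 and 60 UMIs, of which 48 were in 1 ischemia cell. Ifi27l2a was lower there, at 111 and 52.7 CPM, against 2.46% of all genes, and none of the 3 was called without the 5 cells per library with the most member UMIs. The PMN markers summed to 3.84 CPM (control) and 113 CPM (ischemia) in pericyte-like cells and the EC markers to 225 and 381 CPM. The B markers summed to 1022 and 1028 CPM, from 3 of the 7 in each library. Only 26 control and 27 ischemia cells had 0 UMIs of all immune and EC markers, and no member had enough UMIs there. The part of PMN or EC RNA in these values was therefore not tested. PMN-like cells rest on 19 control cells, and 3 of 10 members were called against 25% of all genes, with Isg15 at 49.3 and 190 CPM. In T/NK-like cells Ifi27l2a was at 65.7 and 165 CPM, 1 of 9 members against 2.72%. In podocyte-like cells Irf1 was at 34.1 and 139 CPM and Tapbp at 51.1 and 103 CPM, 2 of 5 members against 0.836%, and in B-like cells 0 of 5 members were called against 8.87%. No member was at least 2-fold lower in PMN-like, T/NK-like, podocyte-like or B-like cells, where 2.37%, 2.13%, 2.56% and 2.01% of all genes were. Among the unnamed clusters, 8 of 16 members were higher in the larger (7.98% of all genes, and 0 members lower against 2.13%) and 6 of 11 in the smaller (6.44%, and 0 lower against 4.56%).

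The 3 members not yet described had few UMIs outside EC-like and macrophage-like cells. Oas1a, a sensor of double-stranded RNA that makes the activator of RNase L, reached 50 UMIs among the named types only in EC-like cells (4.29 and 6.54 CPM) and macrophage-like cells (10.0 and 9.87 CPM). Zbp1, a sensor of left-handed nucleic acid that can start necroptosis, was at 13.6 and 22.1 CPM in EC-like and 25.7 and 25.9 CPM in macrophage-like cells and had 10 or fewer UMIs per library in the tubule types. Usp18, which removes ISG15 and damps type I signaling, was at 16.0 and 23.4 CPM in EC-like and 14.5 and 9.50 CPM in macrophage-like cells. Over all kept cells 16 of 33 members were at least 2-fold higher, against 8.75% of all genes, and 0 lower against 4.13%, and these values mix the change within types with the change in the mix of types. Isg15 was then at 5.98 CPM in the control kidney and 17.7 CPM after ischemia, with 61.6% and 43.8% of its UMIs in EC-like cells.

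The share of cells with a UMI depends on depth, so cells were also thinned to 1000 UMIs each. No type is known to lack Isg15 or B2m, so no background share is given. Isg15 was detected in 21.9% of control and 26.6% of ischemia EC-like cells (medians of 3847 and 4260 UMIs), and in 59 of 947 and 95 of 1040 cells after thinning, or 6.23% and 9.13%, with exact 95% intervals whose upper control bound (7.96%) is above the lower ischemia bound (7.45%). In TAL-like cells (medians of 20065 and 24707 UMIs) it was in 7.09% and 19.9%, and in 0.609% and 2.67% after thinning (3 and 13 cells), with an upper control bound of 1.77% above the lower ischemia bound of 1.43%. In macrophage-like cells the thinned shares were 2.84% and 4.76%, with overlapping intervals, and in PT-like cells 0.0530% and 0.0368%, which rest on 2 cells and 1 cell. B2m was in 2.61% of control and 7.51% of ischemia DCT-CNT-like cells after thinning, in 7.72% and 10.4% of PT-like cells, and in 70.6% and 68.4% of macrophage-like cells.

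Cells with an Isg15 UMI also carried more of the other interferon members. In ischemia PT-like cells the other members summed to 1523 CPM in the 28 cells with an Isg15 UMI and to 100 CPM in the other 2738, a ratio of 15.2. Without the 5 ischemia cells with the most member UMIs, 3 of which had an Isg15 UMI, the values were 402 and 97.9 CPM, a ratio of 4.11. In control PT-like cells the values were 88.5 CPM in 13 cells and 47.5 CPM in 3904, a ratio of 1.86. In TAL-like cells the values were 189 and 62.9 CPM in control and 349.6 and 121 CPM in ischemia, a ratio of 2.89 in the latter. The control and ischemia ratios were 2.53 and 2.51 in CD-PC-like cells, 3.57 and 2.42 in macrophage-like cells, and 1.37 and 1.83 in EC-like cells. Without the 5 cells per library and type, the control and ischemia ratios were 1.93 and 4.11 in PT-like, 1.52 and 2.21 in TAL-like, 2.02 and 1.60 in CD-PC-like, 1.63 and 2.29 in macrophage-like and 1.32 and 1.68 in EC-like cells. Cells with an Isg15 UMI were deeper in each of these groups, for example 25935 against 18404.5 UMIs at the median in ischemia PT-like cells, and CPM are taken per UMI. The class I pathway members differed less, by 1.55-fold in ischemia PT-like cells.

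**Figure D5:**
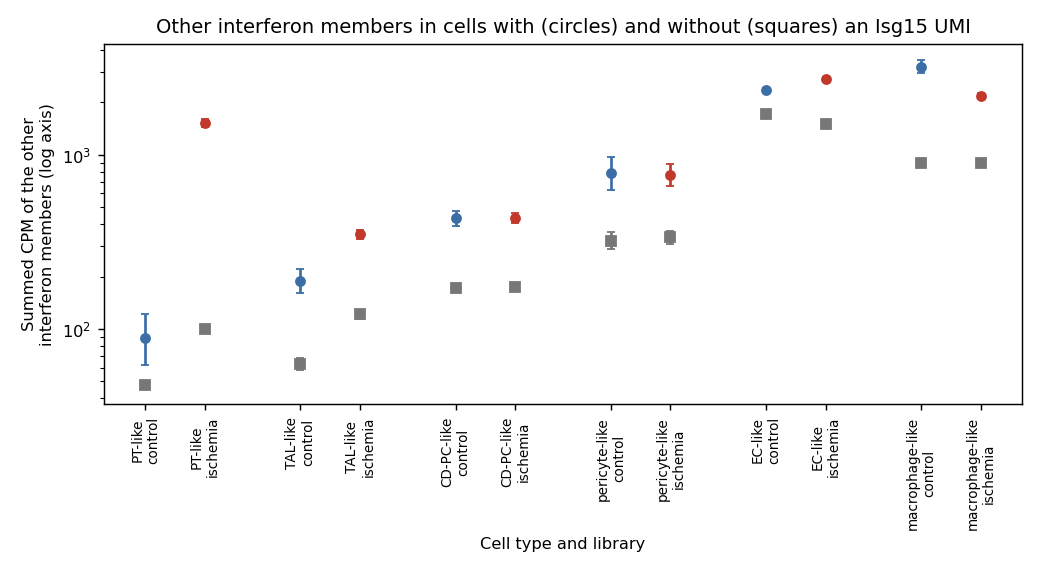
Summed CPM of the interferon members other than Isg15, on a log axis with 95% Poisson intervals, in cells with and without an Isg15 UMI, for 6 cell types and both libraries. The ischemia PT-like values are 1523 and 100 CPM, or 402 and 97.9 CPM without the 5 cells with the most member UMIs, which the plot includes.

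The other genes of the pathway were taken as whole lists by role, beginning with the ligands. Of the 10 interferon genes listed, Ifnb1, Ifne, Ifna1, Ifna2, Ifna4, Ifna5, Ifnl2 and Ifnl3 had 0 UMIs in all kept cells. With a limit of 3 counts this allows up to 0.0241 CPM in the control kidney and 0.0233 CPM after ischemia. No other alpha gene was looked up. Ifnk had 6 UMIs in control and 3 in ischemia. Ifng, the gene of interferon gamma, had 41 UMIs in control and 76 in ischemia, 36 and 75 of them in T/NK-like cells, where it was at 113 and 172 CPM, a ratio of 1.53 (1.01 to 2.34). None of the 10 reached the 50 UMIs needed in the nephron, EC-like or macrophage-like cells.

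Receptors and JAK-STAT genes were mostly under 2-fold. Ifnar1, a chain of the type I receptor, had ratios from 0.860 in EC-like to 1.33 in DCT-CNT-like cells. Ifngr1, the ligand-binding chain of the gamma receptor, was at 18.2 CPM (control) and 27.8 CPM (ischemia) in PT-like cells, and its partner Ifngr2 at 7.99 and 22.2 CPM, a ratio of 2.78. Socs3, a feedback inhibitor of JAK signaling that IL-6 family cytokines also induce, was at 3.26 and 32.2 CPM in PT-like cells. Of the 14 genes, 2 of 13 tested were called higher in PT-like cells, against 6.92% of all genes. The counts were 2 of 13 in TAL-like (7.88%) and 2 of 12 in DCT-CNT-like cells (6.41%). They were 0 of 13 in EC-like (1.68%) and 0 of 12 in macrophage-like cells (5.69%). The lowest and highest ratios were 0.776 (Il10rb), 0.860 (Ifnar1), 1.18 (Socs3) and 1.20 (Jak1) in EC-like cells and 0.728 (Pias1), 0.776 (Tyk2), 1.60 (Jak2) and 1.88 (Socs3) in macrophage-like cells.

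Among the 14 sensors and adaptors Tmem173, or STING, was at least 2-fold higher in 4 types. It was at 5.22 CPM (control) and 29.2 CPM (ischemia) in TAL-like cells, at 3.57 and 23.9 CPM in DCT-CNT-like, 3.93 and 23.2 CPM in CD-PC-like and 15.6 and 43.0 CPM in EC-like cells, ratios of 5.59, 6.69, 5.90 and 2.75. Ddx58, or RIG-I, was 2.35-fold higher in TAL-like and 3.50-fold higher in DCT-CNT-like cells. Mavs (0.481) and Tlr3 (0.447) were called lower in TAL-like cells and Tlr3 (0.385) in macrophage-like cells, where 7.65% and 4.87% of all genes were. In PT-like cells 0 of 8 sensors were called, against 6.92% of all genes higher and 3.83% lower. The other extremes were Tlr3 (0.884), Cgas (0.917) and Dhx58 (1.74) in EC-like cells and Aim2 (0.561), Dhx58 (1.20) and Ddx58 (1.38) in macrophage-like cells.

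Of 51 further interferon-induced genes, 8 of 26 tested were called higher in PT-like cells, 7 of 18 in TAL-like, 6 of 17 in DCT-CNT-like, 5 of 23 in CD-PC-like, 2 of 43 in EC-like and 5 of 37 in macrophage-like cells, where 6.92%, 7.88%, 6.41%, 5.69%, 1.68% and 5.69% of all genes were. Called lower were 1 in TAL-like (7.65% of all genes) and 2 in macrophage-like cells (4.87%). In thin limb-like cells 1 of 17 was higher (3.8% of all genes) and 3 were lower (6.62%). Cxcl10, a chemokine for T cells and NK cells, was at 1.29 CPM (control) and 7.18 CPM (ischemia) in PT-like cells, 14.2 and 66.1 CPM in TAL-like, 5.33 and 32.8 CPM in EC-like and 75.9 and 114 CPM in macrophage-like cells. In DCT-CNT-like cells it had 3 UMIs in control and 582 in ischemia, a ratio of 231 with an interval from 78.6 to 1123, with the 582 UMIs in 61 cells and 117 of them in the highest cell. In EC-like cells 190 of the 236 ischemia Cxcl10 UMIs were in 5 cells and in macrophage-like cells 258 of 610 were in 1 cell. Without the 5 cells per library with the most member UMIs, the Cxcl10 ratio fell to 2.88 in place of 6.16 in EC-like cells. In macrophage-like cells it moved the other way, up to 5.13, where all cells gave 75.9 and 114 CPM. Thin limb-like cells went the other way, at 53.9 and 6.76 CPM. Ifitm3, a membrane protein that blocks virus entry, was at 2.42 and 22.1 CPM in TAL-like, 7.48 and 107 CPM in DCT-CNT-like and 18.9 and 151 CPM in CD-PC-like cells. The extremes were Dtx3l (0.692), Cmpk2 (0.703), Ifitm1 (2.37) and Cxcl10 (6.16) in EC-like cells and Pml (0.448), Ifi213 (0.453), Gbp5 (2.52) and Ifitm1 (4.45) in macrophage-like cells.

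In the rest of the class I pathway, 5 of 14 genes tested were called higher in PT-like cells, against 6.92% of all genes. The counts were 1 of 11 in TAL-like (7.88%) and 3 of 11 in DCT-CNT-like cells (6.41%). They were 0 of 16 in EC-like (1.68%) and 0 in macrophage-like cells (5.69%). Nlrc5, the transactivator of class I genes, was at 0.779 CPM (control) and 3.11 CPM (ischemia) in PT-like cells, a ratio of 3.99 (2.96 to 5.46), against 1.14 in EC-like and 0.824 in macrophage-like cells. Psmb10, the third inducible proteasome subunit, was at 4.87 and 17.0 CPM in PT-like cells. The constitutive subunits Psmb5, Psmb6 and Psmb7 that the inducible ones replace were called in 0 of the 7 types compared. Across these types 1.68% to 7.88% of all genes were called higher. In PT-like cells the 3 were still above control, with ratios of 1.77, 1.57 and 1.26. Their median log2 ratio there was 0.655, against 0.114 for all genes tested. The extremes were H2-T24 (0.510), H2-T23 (0.634), Calr (1.61) and H2-Q6 (1.75) in EC-like cells and H2-T23 (0.505), H2-Q4 (0.728), Calr (1.29) and Psme2 (1.31) in macrophage-like cells.

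The counts of members with and without an ISRE match in their promoter window stand side by side here. Of all genes tested, 6.92% were 2-fold higher in PT-like, 7.88% in TAL-like, 6.41% in DCT-CNT-like and 5.69% in CD-PC-like cells. The counts include members that passed the UMI minimum mainly through the ischemia library. In PT-like cells 8 of 13 tested members with a match and 8 of 12 without were at least 2-fold higher, with median log2 ratios of 1.90 and 1.63. In TAL-like cells the counts were 10 of 13 and 6 of 11, with medians of 1.39 and 1.20, and in DCT-CNT-like cells 6 of 9 and 6 of 8, with medians of 1.87 and 1.44. In CD-PC-like cells the counts were 4 of 11 and 7 of 13, and the medians ran the other way, at 0.74 and 1.22.

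Some members cannot be fully told apart from other genes by their reads. Ifi47 overlaps Olfr56, Igtp overlaps Irgm2, Rtp4 overlaps Gm45338, Irf9 overlaps Rnf31 and Tapbp overlaps Zbtb22 on the same strand of GRCm38, and Ifit3, H2-K1, H2-D1, Oas1a and the Gbp genes have close copies, so their values are uncertain where reads could match either gene.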

How the data were processed

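scRNAseq libraries were made with the 10x single cell 3′ v2 kit from 1 control and 1 ischemia kidney. Per the labels the authors aligned reads to mm10 with Cell Ranger 7.0.0 and deposited whole-number UMI counts per gene and cell, with 15110 and 15257 barcodes. The members and gene lists were chosen with earlier results of these data known. Kept cells had 200 or more genes, between 500 and 150000 UMIs, and no more than 55% mt- UMIs, which gave 124679362 and 128733541 UMIs. They were integrated and clustered in Seurat 5.3.0 (R 4.3.3, 2000 variable genes without members or pathway genes, 30 components, resolution 0.3, seed 42) and named from marker lists. The details of the naming rule were set after the clusters were seen. Macrophage-like cells were clustered again. Doublets were kept in the reported values and scored with Scrublet in scanpy 1.11.5, and an alternative left out the highest 8% of scores.

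UMIs were summed per library and type and given as CPM with exact 95% Poisson intervals, and ratios with exact conditional intervals (Python 3.11.15, scipy 1.17.1). A count of 0 was set to 3 counts in a ratio, and so in the calls, and in the limit given for the ligands. The intervals used the count of 0 itself. UMIs mark molecules, but intervals cover counting error only. Named were all members, the 2 highest and 2 lowest ratios of each pathway list in EC-like and macrophage-like cells, and Nlrc5, Cxcl10, Ifnb1, Ifng, Ifnar1 and Ifngr1, with 1 other gene not reported here. Ifngr2, Socs3, Tmem173, Ddx58, Mavs, Tlr3, Ifitm3 and Psmb10 in other types were chosen after their values were seen. The code was tested on simulated data.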

Additional observations from a re-analysis of the deposited data

Results flagged for a closer look

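Ifit2, Ifit3, Irf1 and Gbp2 were past 2-fold in opposite directions in different cell types, and the difference between types was not tested, since each type rests on 1 library per condition. The Ifit2 ratio of ischemia to control was 6.39 in PT-like cells, 0.473 in thin limb-like and 0.344 in macrophage-like cells. The macrophage-like value rests on 1 control cell with 38 of 69 UMIs and was 0.526 without the 5 cells with the most member UMIs. The thin limb-like value was 1.09 in cells free of immune and EC markers. Ifit3 had 6.20 in PT-like, 2.46 in TAL-like and 8.49 in pericyte-like cells against 0.455 in macrophage-like cells, and the pericyte-like and macrophage-like values each rest on 1 cell with many UMIs. Irf1 had 4.81 in PT-like, 2.38 in TAL-like and 2.48 in DCT-CNT-like cells against 0.188 in thin limb-like and 0.428 in CD-PC-like cells. Gbp2 had 3.57 in PT-like and 52.5 in TAL-like cells, the latter from 1 control UMI, against 0.494 in thin limb-like cells.

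The unnamed clusters entered no comparison by cell type. In the large cluster with a median of 836 UMIs per cell, 8 of 16 members tested were at least 2-fold higher in ischemia, against 7.98% of all genes, with Isg15 at 2.93-fold and Bst2 also at 2.93-fold. In the other, which carried markers of TAL and DCT cells, 6 of 11 members were, against 6.44% of all genes, with Isg15 at 14 and 41 UMIs and Psmb8 at 3.15-fold.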

How the results depend on the processing

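No paired analysis was possible because each condition had 1 library. Of the alternative counts of members past 2-fold, 178 stayed within 1.5 times the reported count and 48 moved. Of the alternative ratios of single members, 529 moved by less than their counting error, 78 moved by more and 4 reversed. The cells free of immune and EC markers (marker-free below), the Ptn-led EC-like cluster and the median-ratio scaling were chosen after seeing the data. So were the cells with the most member UMIs, the minimum of control UMIs and each alternative for thin limb-like cells. The cause of the changes was not tested except where fewer cells or genes were tested by construction.

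Marker-free cells gave 8 members higher in PT-like, 5 in TAL-like, 6 in DCT-CNT-like and 3 in CD-PC-like cells, and 0 lower in CD-PC-like and 0 in either direction in pericyte-like cells. At least 25 control UMIs gave 10, 6, 7 and 7 higher in those 4 tubule types, 0 in pericyte-like and 0 in macrophage-like cells. Without the 5 cells with the most member UMIs, pericyte-like cells had 0 higher and 0 lower, and macrophage-like cells 2 higher and 0 lower. The limit of 25% mt- UMIs gave 6 in TAL-like and 1 in pericyte-like cells. No integration gave 3 in DCT-CNT-like cells and 0 lower in pericyte-like cells, and no cluster was named CD-PC there, so that value was not obtained. The mean of each cell's CPM gave 0 lower in CD-PC-like cells, 1 higher and 0 lower in pericyte-like, and 2 higher and 0 lower in macrophage-like cells. A 1.5-fold limit gave 6 higher and 1 lower in EC-like and 3 higher and 4 lower in macrophage-like cells. The share of all genes past a limit also changes with the setting and is not given beside the counts in this paragraph. They show how the member counts moved and not a difference from all genes. A minimum of 20 UMIs gave 1 lower in DCT-CNT-like and 2 higher in macrophage-like cells. Gating on 3 marker UMIs gave 1 lower in EC-like and 4 higher in macrophage-like cells. In pericyte-like cells, CPM without mt- genes, leaving out high Scrublet scores and dividing by the median ratio each gave 1 higher, and resolution 0.6 and keeping interferon genes among the variable genes each gave 0 lower. In thin limb-like cells, 1 was higher at resolution 0.6, with interferon genes kept, without high Scrublet scores and in marker-free cells, 3 with the mean of each cell's CPM, a 1.5-fold limit or a minimum of 20 UMIs, and 1 was lower with the mean of each cell's CPM and in marker-free cells. There the Ifit2 ratio reversed to 1.09 in marker-free cells and the Stat2 ratio to 1.13 with the mean of each cell's CPM. The ratio in pericyte-like cells reversed to 0.317 for Ifit3 in marker-free cells, which rests on 0 and 1 UMIs with the 0 set to 3 counts and gives no direction, and to 1.45 for Ifi27l2a at resolution 0.6.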
